A study of Homo sapiens with 12 samples.

Results

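ZNF263 is a DNA-binding zinc finger protein with a KRAB domain. It was examined together with 9 genes of the silencing machinery that many KRAB domain proteins are known to recruit. These 9 are TRIM28, SETDB1, CBX1, CBX3, CBX5, DNMT1, DNMT3A, DNMT3B and UHRF1. The 10 genes were taken by their symbols, and all 10 were found among the 20003 genes of the expression table. RNA was sequenced from 3 human lung adenocarcinoma cell lines with EGFR mutations, PC9, HCC827 and H1975, with 2 libraries per group: PC9 cells overexpressing ZNF263 and PC9 control cells, HCC827 cells overexpressing ZNF263 and HCC827 control cells, and H1975 cells overexpressing ZNF263 and H1975 control cells. Every group, control cells included, was kept in DMEM and had been through stepwise osimertinib, an EGFR kinase inhibitor, and the study's title places ZNF263 in the response to EGFR-targeted therapy. The promoter and vector that carry ZNF263, the cells' sensitivity to the drug and the number of clones behind each line are not stated in any source used here. Nor do the labels say whether the 2 libraries of a group stand for 2 cultures, and p-values here rest on the library-to-library spread, possibly technical, alone.

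KRAB domain zinc finger proteins bind DNA through their zinc fingers, and many recruit TRIM28 (also called KAP1) through the KRAB domain. TRIM28 is a scaffold that brings SETDB1, which trimethylates lysine 9 of histone H3, and the heterochromatin proteins CBX1, CBX3 and CBX5 (HP1 beta, gamma and alpha), which bind that mark. DNA methyltransferases can act at the same sites: DNMT3A and DNMT3B place new methyl groups, DNMT1 copies them at replication, and UHRF1 recruits DNMT1 to hemimethylated DNA. Protein levels, histone marks, DNA methylation and ZNF263 binding, be it to DNA or to TRIM28, were not measured in these data.

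Among promoters, those of DNMT3B and SETDB1 are shown because these genes of the machinery had opposite changes in H1975 and the windows hold no exon base in the gene annotation. The 250 bases before the RefSeq start (GRCh38.p14) are given 5′ to 3′ on the gene's strand, in lower case. Capitals mark GGAGGA, a purine-rich hexamer of the kind that the DNA element reported for ZNF263 is made of, or its complement TCCTCC.
DNMT3B, chr20:32779602-32779851, plus strand: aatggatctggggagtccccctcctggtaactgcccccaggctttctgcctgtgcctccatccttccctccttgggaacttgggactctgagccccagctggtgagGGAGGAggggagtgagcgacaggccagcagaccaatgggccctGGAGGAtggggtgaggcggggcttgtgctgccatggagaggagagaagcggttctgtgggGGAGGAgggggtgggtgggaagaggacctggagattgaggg
SETDB1, chr1:150926013-150926262, plus strand: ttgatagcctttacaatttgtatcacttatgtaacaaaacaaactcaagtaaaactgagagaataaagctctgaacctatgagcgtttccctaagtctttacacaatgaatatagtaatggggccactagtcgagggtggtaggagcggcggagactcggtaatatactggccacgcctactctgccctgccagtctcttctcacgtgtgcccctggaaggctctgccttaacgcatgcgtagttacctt
GGAGGA occurred 3 times, without overlap, in the DNMT3B window and on neither strand of the SETDB1 window. The DNMT3B window held 3 CpG dinucleotides and the SETDB1 window 9, against a median of 11 over 35116 promoter windows of the same length. RefSeq windows were matched for 9 of the 10 genes, all but TRIM28, and GGAGGA on either strand was present in 4 of them (CBX3, DNMT1, DNMT3A and DNMT3B), while 31.76% of all windows held it. Of the genes whose windows held it, DNMT1 and DNMT3B had changes of 0.68 and -0.53 in H1975, and CBX3 and DNMT3A were not called there. Among the 5 windows without the hexamer were those of SETDB1 and CBX5, which rose in H1975, and those of CBX1 and UHRF1, which fell there. Both sets thus held genes that rose and genes that fell. The match is a description of these letters in this window, and whether ZNF263 binds there was not measured.

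Values are FPKM (fragments counted per gene, scaled to gene length and library depth) as deposited, and the changes are differences in log2(FPKM + 1), ZNF263 minus control, from limma with Benjamini-Hochberg adjustment over all tested genes, called at an adjusted p below 0.05. Whole reads recovered from the FPKM steps gave 17431840 to 19857248 reads per library in PC9, 16026015 to 16791000 in HCC827 and 29560873 to 31935916 in H1975. The epithelial identity of the lines was uneven: 8 of 8 epithelial markers had a group mean of 1 FPKM or more in HCC827 and H1975, and 4 of 8 in PC9, where EPCAM, KRT19, CLDN4 and CLDN7 were below 1 FPKM in either group. H1975 stood apart, with 64.2% of the tested genes called (32.1% higher and 32.1% lower with ZNF263), against 19.5% in HCC827 and 11.3% in PC9. The identity of the lines and of the H1975 groups was not checked beyond these markers, so a change with ZNF263 and any other difference between the H1975 groups cannot be told apart. In H1975 the summed level of the 8 epithelial markers was 1910 to 1926 FPKM with ZNF263 and 4253 to 4257 FPKM in control libraries, with 1 marker higher (0 without H1975 ZNF263 replicate 1) and 7 lower. EPCAM, CLDN7 and CLDN4, an adhesion molecule and 2 tight junction proteins, fell there, with log2 changes of -2.79, -2.73 and -2.37. The 9 fibroblast markers summed to 175.5 to 179.9 FPKM with ZNF263 and 30.89 to 34.25 FPKM in H1975 control libraries, with COL1A2 at 166.4 FPKM with ZNF263 and 14.55 FPKM in control cells, while PDGFRA and THY1 were listed at 0 with ZNF263. Of the 5 fibroblast markers measured, 3 were higher and 2 lower in H1975. PDGFRB had 1.62 FPKM with ZNF263 and 0.119 FPKM in control cells, LUM 0.132 and 1.84 FPKM, and COL1A1 9.29 and 15.9 FPKM. PDGFRB met the filter of 1 FPKM in 2 libraries only through the H1975 libraries with ZNF263. It was below the filter when either was left out, so the direction of its call was set in part by the filter. The 8 immune markers summed to 79.66 to 85.31 FPKM with ZNF263 and 95.22 to 95.69 FPKM in H1975 control libraries. Of the 3 measured, CD14 was higher (20.2 FPKM with ZNF263 and 3.09 FPKM in control cells). CD79A (0.671 and 10.3 FPKM) and CD68 (61.4 and 82.0 FPKM) were lower. CD79A met the filter only through the H1975 control libraries and was below it when either was left out. The direction of its call was thus set in part by the filter. PTPRC, the defining marker of white blood cells, averaged 0.0023 FPKM in either group of H1975. Epithelial markers summed to 3958 to 4192 FPKM with ZNF263 and 2786 to 2810 FPKM in PC9 control libraries, and to 3344 to 3583 FPKM with ZNF263 and 3739 to 4220 FPKM in HCC827 control libraries. CDH1, KRT18 and KRT8 rose in PC9 by 0.99, 0.65 and 0.62. In HCC827, CLDN4 rose by 0.33 and KRT7 and KRT19 fell by 0.64 and 0.57. In the same line CD68 fell by 0.33, and COL3A1 had 1.85 FPKM with ZNF263, against 0.284 FPKM in control cells. COL3A1 met the filter only through the HCC827 libraries with ZNF263, so the direction of its call was set in part by the filter. The CLDN4 call was lost under median-of-ratios scaling (limma adjusted p = 0.0693). On log2(FPKM + 0.1) the HCC827 calls of CLDN4 and KRT19 were both lost (limma adjusted p = 0.171 and 0.352). CLDN4 stood at 0.22 in HCC827 without HCC827 control replicate 2. No endothelial or neuroendocrine marker reached the filter. The part of these shifts in the results on the silencing genes was not tested.

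The introduced gene was checked first, and each line's libraries labelled ZNF263 held more ZNF263 RNA than their controls, by a smaller factor in HCC827. In PC9 it had 39.3 and 39.0 FPKM with ZNF263, against 9.55 and 9.11 FPKM in control libraries. In HCC827 it had 19.6 and 19.8 FPKM with ZNF263, against 13.2 and 11.8 FPKM in control libraries. In H1975 it had 39.1 and 39.8 FPKM with ZNF263, against 10.2 and 9.63 FPKM in control libraries. The groups did not overlap in any line, and the 2 HCC827 libraries with ZNF263 lay between the control libraries and the PC9 and H1975 libraries with ZNF263. The fold of ZNF263 over control was 4.19 in PC9, 1.57 in HCC827 and 3.98 in H1975. The log2 changes were 1.96 ± 0.061 in PC9 (SE, limma adjusted p = 2.83e-09), 0.62 ± 0.061 in HCC827 (4.17e-05) and 1.89 ± 0.061 in H1975 (5.95e-11). The difference between H1975 and PC9 was -0.07 ± 0.086 (limma adjusted p = 0.545), whereas HCC827 was below PC9 by a difference of -1.34 ± 0.086 (3.15e-06), and H1975 was above HCC827 by 1.27 ± 0.086 (1.15e-07). The smaller rise in HCC827 goes with both a higher control level (12.5 ± 0.977 FPKM, against 9.33 ± 0.314 in PC9 and 9.91 ± 0.399 in H1975 control cells) and a lower level with ZNF263 (19.7 ± 0.0927 FPKM in HCC827, 39.1 ± 0.221 in PC9 and 39.5 ± 0.502 in H1975; SD, n = 2 each).

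ZNF263 lies on chromosome 16 at 3263800 to 3301401 on the plus strand (GRCh38, GENCODE annotation). Of its 6945 annotated exon bases, 2296 (33.1%) are shared with TIGD7, a gene on the opposite strand derived from a transposable element. No source used here says whether the counting used strand, so reads from the shared bases may have been split between the pair. TIGD7 had 0.705 and 0.898 FPKM with ZNF263 and 0.607 and 0.717 FPKM in PC9 control libraries, 4.16 and 3.46 FPKM with ZNF263 and 2.77 and 4.04 FPKM in HCC827 control libraries, and 4.88 and 4.87 FPKM with ZNF263 and 4.13 and 5.64 FPKM in H1975 control libraries. The TIGD7 groups overlapped in each line, and none of its changes, 0.0091 in H1975, 0.14 in HCC827 and 0.12 in PC9, passed the test (limma adjusted p = 0.968, 0.538 and 0.693). ZNF200, the tested gene on the other side, changed by no more than 0.12 in any line and was not called. Reads from the introduced ZNF263 and from the cell's own copy cannot be told apart in a table with 1 value per gene.

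**Figure D1:**
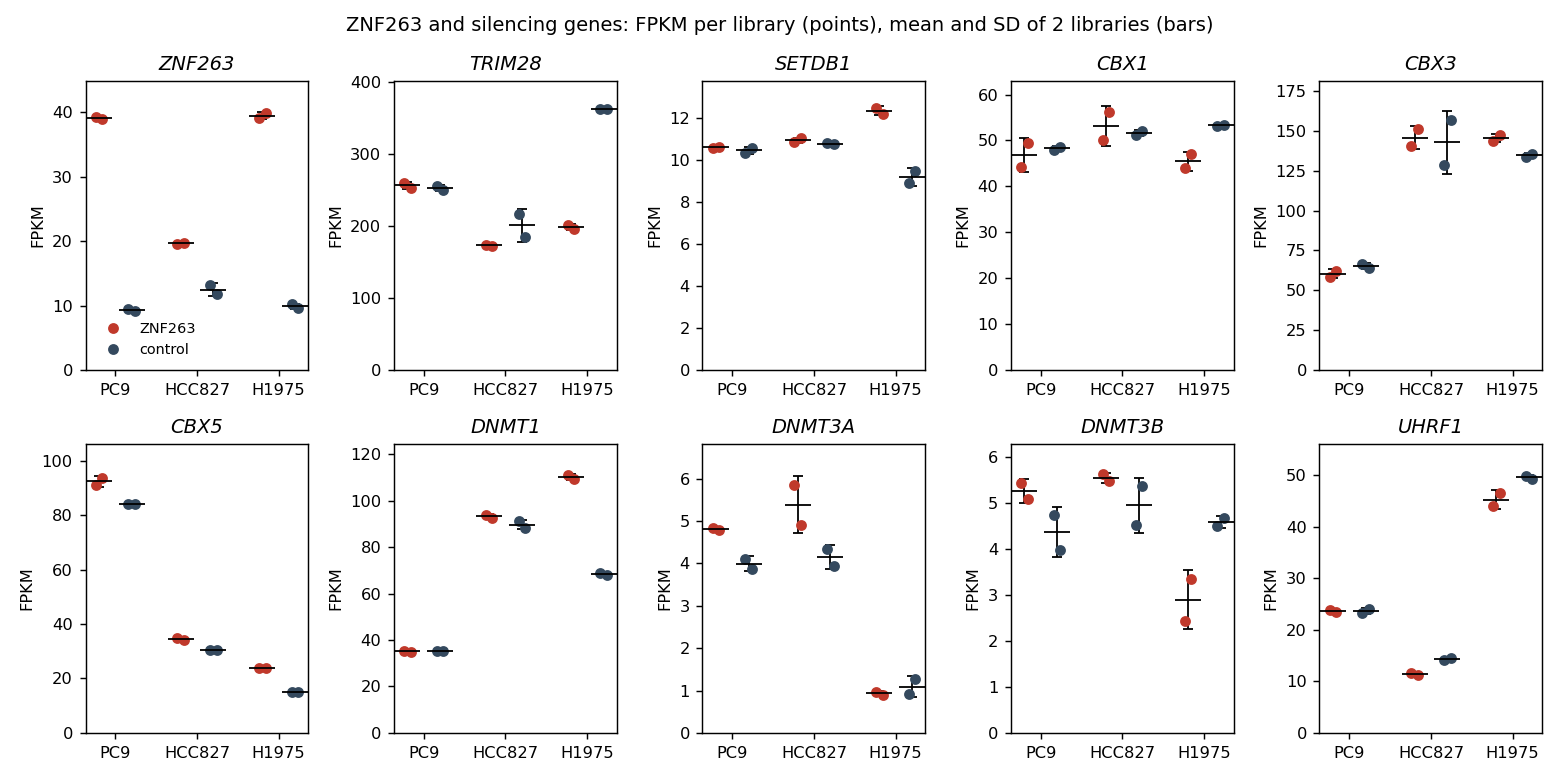
FPKM of ZNF263 and the 9 silencing genes in each of the 12 libraries (points; ZNF263 left of control in each line), with the mean and SD of 2 libraries (black bars); the vertical axes start at 0 and differ between panels. ZNF263 is separated in all 3 lines, and TRIM28, CBX5 and DNMT1 are most clearly separated in H1975, where TRIM28 is near 199 FPKM with ZNF263 and 362 FPKM in control cells.

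The other 9 genes differed between lines in how many were called. In PC9, 0 of 9 passed the test, where 11.3% of all tested genes did (7.21% higher and 4.12% lower). In HCC827, 4 of 9 passed (CBX5 and DNMT3A higher, TRIM28 and UHRF1 lower), beside 19.5% of all genes (13.0% higher and 6.44% lower), and 3 of these 4 calls depended on single libraries, as given below for each gene. Over all HCC827 calls, 66.9% were higher as deposited, 45.0% after median-of-ratios scaling and 50.5% after quantile normalization. In H1975, 7 of 9 passed (SETDB1, CBX5 and DNMT1 higher; TRIM28, CBX1, DNMT3B and UHRF1 lower), beside 64.2% of all genes, so a count of 7 is near what that share gives. The median change of the 9 genes was 0.019 in PC9, 0.042 in HCC827 and -0.11 in H1975, beside medians of 0, 0.045 and 0.0025 over all tested genes. The test of a difference between the 3 lines passed for 7 of the 9 genes, all but CBX1 and CBX3, and for 60.3% of all genes. Between pairs of lines the change differed for 1 of the 9 genes, UHRF1, between HCC827 and PC9 (9.60% of all genes), for 5 between H1975 and PC9 (54.1%) and for 7 between H1975 and HCC827 (53.7%). Over the mean of the 3 lines, CBX5, DNMT1 and SETDB1 were called higher and TRIM28 and UHRF1 lower, where 52.9% of all genes were called (28.9% higher and 23.9% lower). For CBX5, DNMT1, SETDB1 and TRIM28 the H1975 change was the largest of the 3, and for UHRF1 that of HCC827. In these bulk samples, fewer cells of a type and less RNA per cell cannot be told apart.

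**Figure D2:**
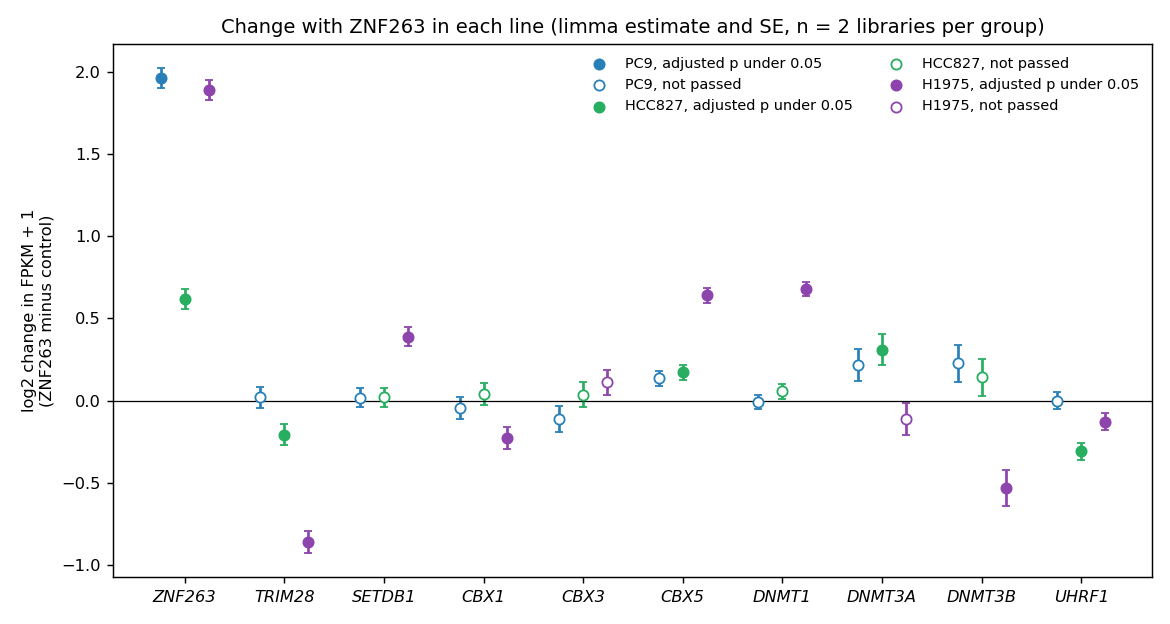
Change in log2(FPKM + 1), ZNF263 minus control, for the 10 genes in each line, with the limma estimate and SE (n = 2 libraries per group); filled points passed an adjusted p of 0.05 and open points did not. ZNF263 stands at 1.96, 0.62 and 1.89, and of the others H1975 spans -0.86 (TRIM28) to 0.68 (DNMT1) while PC9 stays between -0.11 and 0.23.

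TRIM28, the scaffold that many KRAB domains bind, was lower with ZNF263 in H1975 by the largest change of the 9 genes there. It stood at 0.55 times its control level. In H1975 it had 202 and 196 FPKM with ZNF263, against 362.0 and 362.1 FPKM in control libraries, a change of -0.86 ± 0.065 (SE, limma adjusted p = 1.16e-07). The 2 control libraries were nearly identical and the groups far apart. In HCC827 it had 174 and 173 FPKM with ZNF263, against 217 and 185 FPKM in control libraries, a change of -0.21 ± 0.065 (limma adjusted p = 0.0403). That HCC827 call was lost when any 1 of 11 of the 12 libraries was left out, HCC827 control replicate 2 being the exception (adjusted p = 0.0526 to 0.202), and without HCC827 control replicate 1, the high one, the change was -0.09. PC9 libraries had 260.1 and 253 FPKM with ZNF263, against 256 and 249.7 FPKM in control libraries, and the groups overlapped (0.02 ± 0.065, limma adjusted p = 0.917). The H1975 change differed from that of PC9 by -0.88 ± 0.091 and from that of HCC827 by -0.65 ± 0.091 (limma adjusted p = 4.88e-06 and 6.07e-05). TRIM28 lies at the end of the long arm of chromosome 19 (58544091 to 58550722, plus strand), where 13 neighbouring genes were tested within 10 on each side. In H1975, 10 of these 13 fell and 0 rose, with a median change of -0.36, and TRIM28 less that median stood at -0.50. CHMP2A, the tested gene beyond it and a subunit of the ESCRT-III membrane remodelling complex, fell by 0.71 in H1975 (limma adjusted p = 8.32e-08), whereas ZBTB45 on the near side stood at -0.10 (0.313).

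SETDB1, the histone H3 lysine 9 methyltransferase that TRIM28 recruits, was higher with ZNF263 in H1975 and near its control level elsewhere. In H1975 it had 12.5 and 12.2 FPKM with ZNF263, against 8.87 and 9.48 FPKM in control libraries, 1.34 times control (0.39 ± 0.058, limma adjusted p = 6.46e-05). In HCC827 it had 10.85 and 11.02 FPKM with ZNF263, against 10.78 and 10.74 FPKM in control libraries. PC9 libraries had 10.57 and 10.60 FPKM with ZNF263, against 10.33 and 10.55 FPKM in control libraries. The groups did not overlap in any line but lay close together in HCC827 and PC9. The same lack of overlap held for 82.5% of all tested genes in H1975, 53.9% in HCC827 and 57.7% in PC9. The changes in HCC827 and PC9 were 0.02 ± 0.058 each, with limma adjusted p of 0.843 and 0.912, and the H1975 change was larger than either by 0.37 ± 0.082 (0.00216 against HCC827 and 0.00208 against PC9). SETDB1 (chromosome 1, 150926263 to 150964744, plus strand) shares 13.4% of its exon bases with CERS2, a ceramide synthase on the opposite strand, which rose by 0.35 in H1975 (3.62e-05). ARNT, the tested gene on the other side and the partner of hypoxia-inducible factors, rose by 0.63 (6.45e-06). Of 20 neighbours in H1975, 10 rose and 4 fell, with a median of 0.21, and SETDB1 less that median was 0.18.

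The HP1 genes did not move together. CBX5, which encodes HP1 alpha, had higher values with ZNF263 in all 3 lines, the highest fold being in H1975. In H1975 it had 23.89 and 23.99 FPKM with ZNF263, against 14.98 and 15.03 FPKM in control libraries, 1.59 times control (0.64 ± 0.046, limma adjusted p = 8.28e-08). In HCC827 it had 34.9 and 34.0 FPKM with ZNF263, against 30.5 and 30.4 FPKM in control libraries (0.17 ± 0.046, 0.0202). In PC9 it had 91.0 and 93.8 FPKM with ZNF263, against 83.9 and 84.1 FPKM in control libraries (0.14 ± 0.046, 0.0800). The groups did not overlap in any line, and replicates differed by less than the groups did. Lack of overlap was common, at 82.5% of all tested genes in H1975, 53.9% in HCC827 and 57.7% in PC9. The HCC827 call was lost without HCC827 ZNF263 replicate 1 or replicate 2 (adjusted p = 0.126 and 0.0512) and under median-of-ratios scaling (0.141), and the PC9 change passed without HCC827 control replicate 1 or 2 (0.0411 and 0.0412). The H1975 change exceeded that of PC9 by 0.50 ± 0.065 and that of HCC827 by 0.47 ± 0.065 (limma adjusted p = 3.40e-05 and 6.19e-05). CBX5 (chromosome 12, 54230940 to 54280133, minus strand) was set against its surroundings in H1975: its 20 neighbours had a median change of -0.09, with 4 higher and 8 lower, and CBX5 less that median was 0.73. HNRNPA1, an RNA-binding protein gene beside it, stood at 0.019 in H1975 (0.767), and SMUG1, a uracil-DNA glycosylase gene on the other side, fell by 0.56 (0.000162).

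CBX1, which encodes HP1 beta, was lower with ZNF263 in H1975, at 0.85 times control. In H1975 it had 43.9 and 47.0 FPKM with ZNF263, against 53.2 and 53.5 FPKM in control libraries (-0.23 ± 0.066, limma adjusted p = 0.00892). Without H1975 ZNF263 replicate 1, the lowest library, the change was -0.18 and did not pass (0.0848). The groups overlapped in both other lines, with 50.2 and 56.3 FPKM with ZNF263 against 51.1 and 52.0 FPKM in HCC827 control libraries, and 44.2 and 49.4 FPKM with ZNF263 against 48.0 and 48.6 FPKM in PC9 control libraries. The F test of a difference between lines did not pass for CBX1 (limma adjusted p = 0.0608). CBX3, which encodes HP1 gamma, passed in no line, at 0.11 ± 0.077 in H1975, 0.036 ± 0.077 in HCC827 and -0.11 ± 0.077 in PC9 (limma adjusted p = 0.227, 0.790 and 0.418). Its levels were 58.5 and 62.3 FPKM with ZNF263 against 66.7 and 64.0 FPKM in PC9 control libraries, 141 and 151 FPKM with ZNF263 against 129 and 157 FPKM in HCC827 control libraries, and 144 and 147 FPKM with ZNF263 against 133 and 136 FPKM in H1975 control libraries. The 2 HCC827 control libraries of CBX3 lay on either side of the libraries with ZNF263, and without control replicate 2 the HCC827 change was 0.18 and passed (0.0468). GENCODE names 5 pseudogenes of CBX1, 9 of CBX3 and 1 of CBX5, none of them in the table, and reads from near-identical copies could have been split or added, so these levels are less certain than their replicate error. CBX3 also shares 7.93% of its exon bases with HNRNPA2B1, which stood at 0.077 in H1975 (0.291), and SNX10 on its other side fell by 0.45 (0.00623). Beside CBX1, SNX11 fell by 0.84 in H1975 (8.26e-07) and NFE2L1 stood at -0.09 (0.273).

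Of the genes for DNA methylation, DNMT1 had the largest change. DNMT1, the maintenance methyltransferase, had 111 and 109 FPKM with ZNF263, against 69.0 and 67.9 FPKM in H1975 control libraries, 1.61 times control (0.68 ± 0.045, limma adjusted p = 3.44e-08). In HCC827 it had 93.9 and 92.8 FPKM with ZNF263, against 91.2 and 88.3 FPKM in control libraries (0.056 ± 0.045, 0.417). PC9 libraries had 35.25 and 34.91 FPKM with ZNF263, against 35.31 and 35.27 FPKM in control libraries (-0.0083 ± 0.045, 0.961). The groups were far apart in H1975 and close together in the other lines. The H1975 change exceeded that of PC9 by 0.69 ± 0.063 and that of HCC827 by 0.62 ± 0.063 (limma adjusted p = 1.65e-06 and 3.85e-06). DNMT1 lies on the short arm of chromosome 19 (10133345 to 10231286, minus strand), and 16 of its 20 neighbours rose in H1975 while 0 fell, with a median change of 0.38. DNMT1 less that median was 0.30. EIF3G, a translation initiation factor subunit gene, and S1PR2, a sphingosine-1-phosphate receptor gene, are the tested genes on either side of DNMT1 and rose in H1975 by 0.52 and 0.71 (limma adjusted p = 2.72e-06 and 0.000713).

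DNMT3B, a de novo methyltransferase, went the other way in H1975. It had 2.44 and 3.35 FPKM with ZNF263, against 4.495 and 4.676 FPKM in H1975 control libraries, 0.63 times control (-0.53 ± 0.11, limma adjusted p = 0.000993). The 2 libraries with ZNF263 differed by more than the control libraries did, and both lay below them. DNMT3B had 5.61 and 5.46 FPKM with ZNF263 against 4.51 and 5.37 FPKM in HCC827 control libraries, and 5.44 and 5.07 FPKM with ZNF263 against 4.74 and 3.97 FPKM in PC9 control libraries. Those differences, 0.14 ± 0.11 in HCC827 and 0.23 ± 0.11 in PC9, did not pass (limma adjusted p = 0.409 and 0.232), and the H1975 change was below that of HCC827 by a difference of -0.67 ± 0.16 and that of PC9 by -0.76 ± 0.16 (0.00295 and 0.00134). The neighbours of DNMT3B (chromosome 20, 32762385 to 32809356, plus strand) had a median of 0.11 in H1975, with 7 higher and 4 lower of 20, and DNMT3B less that median was -0.64. COMMD7, the tested gene directly before it, fell with it by 0.37 (0.00171), and MAPRE1, the gene after it, stood at 0.0030 (0.972). Its promoter window with 3 copies of GGAGGA, printed above, lies inside the longest annotated extent of the gene, upstream of the RefSeq start.

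DNMT3A, the other de novo methyltransferase, was called in HCC827 and in neither other line. It had 5.86 and 4.91 FPKM with ZNF263, against 4.34 and 3.94 FPKM in HCC827 control libraries, 1.30 times control (0.31 ± 0.095, limma adjusted p = 0.0390). The call was lost without any 1 of the 4 PC9 libraries (adjusted p = 0.0558 to 0.0561), without HCC827 control replicate 1 or 2 (0.0575 and 0.130) and without HCC827 ZNF263 replicate 1 (0.20, 0.289). It also did not pass under median-of-ratios scaling (0.0779) or quantile normalization (0.117). In PC9 it had 4.83 and 4.78 FPKM with ZNF263, against 4.12 and 3.88 FPKM in control libraries (0.22 ± 0.095, 0.182). In H1975 it was near 1 FPKM in all libraries, 0.977 and 0.891 FPKM with ZNF263 against 0.923 and 1.27 FPKM in control libraries, and the groups overlapped (-0.11 ± 0.095, 0.333). DNMT3A lies on chromosome 2 (25227855 to 25342590, minus strand), where 11 of 20 neighbours fell in H1975 and 0 rose, though the adjoining EFR3B and DTNB, at -0.15 and -0.04, were not called (0.104 and 0.658).

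UHRF1, which brings DNMT1 to hemimethylated DNA, was lower with ZNF263 in HCC827. It had 11.6 and 11.1 FPKM with ZNF263, against 14.2 and 14.5 FPKM in HCC827 control libraries, 0.79 times control (-0.31 ± 0.052, limma adjusted p = 0.00156). The groups were clearly separate, and the call was kept when any 1 library was left out. In H1975 it had 44.0 and 46.5 FPKM with ZNF263, against 49.9 and 49.3 FPKM in control libraries (-0.13 ± 0.052, 0.0462), a call that was lost without any 1 of 9 libraries: the 4 PC9 libraries, HCC827 ZNF263 replicate 1 or 2, H1975 control replicate 1 or 2, or H1975 ZNF263 replicate 1 (adjusted p = 0.0502 to 0.277). It did not pass under quantile normalization either (-0.07, 0.245). PC9 libraries had 23.9 and 23.5 FPKM with ZNF263, against 23.3 and 24.1 FPKM in control libraries, with the groups overlapping. The HCC827 change of UHRF1 differed from that of PC9 by -0.31 ± 0.074 (limma adjusted p = 0.0206), a difference not called without PC9 control replicate 1 or 2, PC9 ZNF263 replicate 1 or HCC827 ZNF263 replicate 2 (adjusted p = 0.0542 to 0.0932). UHRF1 and DNMT1, which act in the same step of maintenance methylation, thus had opposite signs in H1975, and of the pair UHRF1 was called in HCC827 where DNMT1 stood at 0.056. UHRF1 lies on chromosome 19 at 4903080 to 4962154 (plus strand), between PLIN3, which fell by 0.21 in H1975 (0.0241), and KDM4B, which rose by 0.17 (0.0440).

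**Figure D3:**
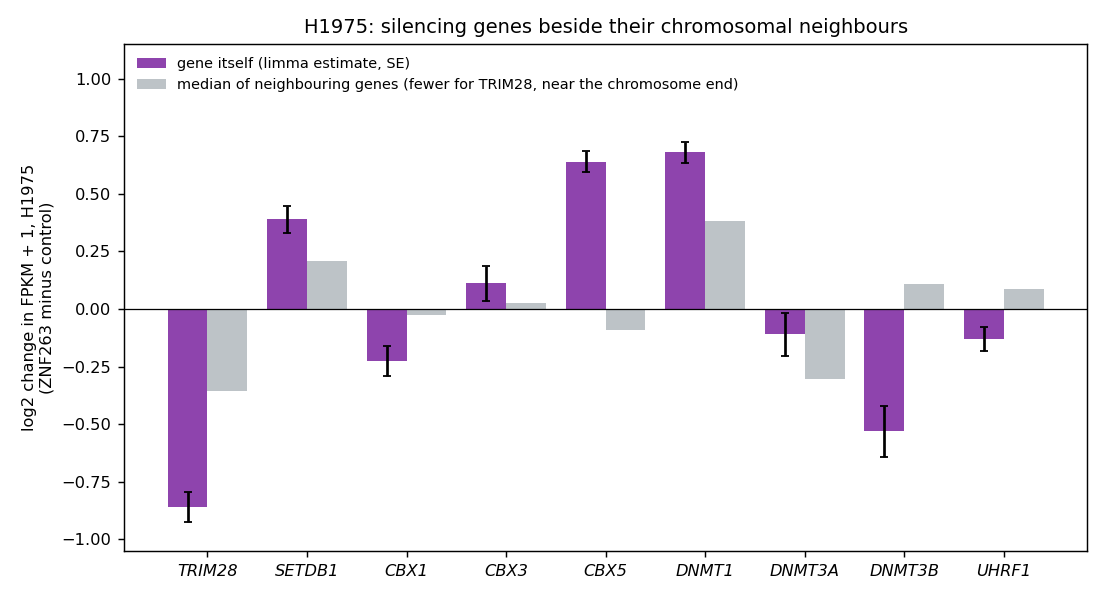
Change in log2(FPKM + 1) in H1975, ZNF263 minus control, of each silencing gene (coloured bars, limma estimate and SE) and the median change of its neighbouring tested genes on the chromosome (grey bars; 13 genes for TRIM28, 20 for each other gene). TRIM28 and DNMT1 stand at -0.86 and 0.68 beside neighbour medians of -0.36 and 0.38. CBX5, DNMT3B and UHRF1 had the opposite sign to their neighbours' medians, at 0.64 beside -0.09, -0.53 beside 0.11 and -0.13 beside 0.09.

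By the sign of their median, neighbouring genes moved in H1975 with TRIM28, SETDB1 and DNMT1, and with DNMT3A, which was not called. The neighbours' median had the opposite sign for CBX5, DNMT3B and UHRF1. For CBX1 and CBX3 it had the same sign, at -0.024 and 0.028. An error of the neighbours' median was not estimated. Less the neighbours' median, the H1975 changes were 0.73 for CBX5, 0.30 for DNMT1, 0.19 for DNMT3A, 0.18 for SETDB1, 0.083 for CBX3, -0.20 for CBX1, -0.22 for UHRF1, -0.50 for TRIM28 and -0.64 for DNMT3B, so DNMT1 was no longer the highest and TRIM28 no longer the lowest. ZNF263 less its neighbours was 1.80 in H1975. DNMT3A changed sign by this measure, its own change being -0.11 and not called. Copy number was not measured in these data, and its part in these values was not tested.

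The level of each gene across lines can be set side by side for HCC827 and H1975, whose FPKM were scaled to gene lengths that agreed to a ratio of 1.001 for all 10 genes. In control cells, DNMT3A averaged 4.14 ± 0.284 FPKM in HCC827 and 1.10 ± 0.243 FPKM in H1975, UHRF1 14.4 ± 0.195 and 49.6 ± 0.410 FPKM, CBX5 30.5 ± 0.0261 and 15.0 ± 0.0368 FPKM, and TRIM28 201 ± 23.2 and 362 ± 0.0681 FPKM (SD, n = 2 each). For SETDB1, CBX1, CBX3 and DNMT3B the control levels of HCC827 and H1975 were closer, at 10.8 and 9.18 FPKM, 51.6 and 53.3 FPKM, 143 and 135 FPKM, and 4.94 and 4.59 FPKM. In PC9 the length used for TRIM28 was 0.454 times that in HCC827 and for DNMT3A 0.575 times, on the assumption that the recovered reads share no common factor, so the PC9 levels of these genes are not compared with the other lines. Among the 9 genes, TRIM28 had the highest FPKM and DNMT3A the lowest in control cells of HCC827 and H1975. In HCC827 control cells the means of DNMT3A and DNMT3B, 4.14 ± 0.284 and 4.94 ± 0.606 FPKM, lay within the sum of their SDs.

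Other genes of the same pathways were read from lists of partners and opposing enzymes, each count standing beside 64.2% of all genes called in H1975 (32.1% in each direction), 19.5% in HCC827 and 11.3% in PC9. Of 9 measured histone H3 lysine 9 methyltransferases and SETDB1 partners, 7 rose and 0 fell in H1975, and 0 passed in HCC827 or PC9. Without HCC827 control replicate 1, 1 of the 9 was called lower in HCC827, and without HCC827 control replicate 1 or 2, 1 was called lower in PC9. WIZ, the zinc finger partner of the G9a methyltransferase, rose to 15.0 FPKM with ZNF263 against 7.19 FPKM in H1975 control cells (0.97 ± 0.060, limma adjusted p = 2.17e-08). EHMT2, which encodes G9a, had 17.9 against 11.2 FPKM (0.63, 1.82e-06), and ATF7IP2, a paralog of the SETDB1 cofactor ATF7IP, had 2.79 against 1.55 FPKM (0.57, 2.85e-05). The median of the list in H1975 was 0.25, beside 0.0025 over all genes. Of the HUSH complex, MORC2 and related factors, which silence transposable elements with SETDB1, 6 were measured in H1975, of which 4 rose and 1 fell, beside 64.2% of all genes called. DAXX, a histone H3.3 chaperone, rose by 0.75 (limma adjusted p = 1.39e-07) and MORC2, an ATPase, by 0.50 (2.88e-05), while PPHLN1, the periphilin subunit of HUSH, fell by 0.57 (3.14e-06). In PC9, 1 of 8 was called, FAM208B (also named TASOR2), which fell by 0.26 (0.0338), and 0 of 6 in HCC827, or 2 higher without HCC827 control replicate 2. The FAM208B call was lost without any 1 of the 4 PC9 libraries (adjusted p = 0.101 to 0.197).

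TRIM24, a paralog of TRIM28 and a nuclear receptor cofactor, moved opposite to TRIM28 in H1975, with 30.9 FPKM with ZNF263 against 12.3 FPKM in control cells (1.26 ± 0.070, limma adjusted p = 7.36e-09). It belongs to a list of 14 TIF1 paralogs and SUMO pathway genes, SUMO being the modification through which TRIM28 attracts SETDB1, and 4 of the 14 rose and 4 fell in H1975, where 64.2% of all genes were called. Without H1975 control replicate 2 or H1975 ZNF263 replicate 1, 2 were called lower. The SUMO proteases SENP7 and SENP6 rose there by 0.55 and 0.50 (limma adjusted p = 0.000438 and 0.000111). In HCC827, SENP7 rose by 0.52 (0.00405) and SAE1, a subunit of the SUMO activating enzyme, fell by 0.18 (0.0475), a call lost without any 1 library other than HCC827 control replicate 2 (0.0557 to 0.241). Without that library, 3 of the list were called higher and 3 lower in HCC827. Of these 14, 0 passed in PC9, where 1 was called higher and 2 lower without HCC827 control replicate 1 or 2. Of 13 subunits of the NuRD deacetylase, which TRIM28 also binds, 4 rose and 3 fell in H1975, again beside 64.2% of all genes. HDAC2 rose by 0.54 and RBBP7 by 0.36, and CHD3, the remodelling ATPase that TRIM28 contacts, fell by 0.35 (limma adjusted p = 4.59e-06, 4.56e-05 and 5.25e-05). CHD3 also fell in PC9, by 0.25 (0.00731), the only NuRD gene called there, but not without PC9 control replicate 1 or 2 or PC9 ZNF263 replicate 1 (0.0532 to 0.0694). HDAC1 rose by 0.20 in HCC827 (0.0260), the only one called there (1 other was lower without HCC827 control replicate 2), though not under median-of-ratios scaling (0.135) or without HCC827 control replicate 2 or HCC827 ZNF263 replicate 1 or 2 (0.0527 to 0.156).

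Of 12 measured genes for DNA methylation maintenance and reading of methylated DNA, 4 rose and 4 fell in H1975, about the 64.2% called over all genes, and 0 passed in HCC827 and PC9. In HCC827, 2 were called lower without control replicate 1 and 2 higher without control replicate 2. ZBTB33, the methyl-CpG binding protein Kaiso, rose to 12.3 FPKM with ZNF263 against 5.79 FPKM in H1975 control cells (0.97, limma adjusted p = 6.71e-08). UHRF2, the paralog of UHRF1, fell to 6.60 FPKM with ZNF263 against 11.6 FPKM in control cells (-0.73, 8.47e-06), and MBD1, a methyl-CpG binding protein that associates with SETDB1, fell by 0.48 (5.33e-05). Of 9 DNA demethylation genes, 3 rose and 2 fell in H1975, 2 rose in HCC827 and 1 rose in PC9, beside 64.2%, 19.5% and 11.3% of all genes called. The H1975 counts became 5 higher without HCC827 ZNF263 replicate 1 or 2, and 1 lower without any library other than HCC827 control replicate 1 or 2 or H1975 ZNF263 replicate 1. IDH2, the mitochondrial source of the TET cofactor 2-oxoglutarate, was called in each line, with changes of 0.77 (H1975, 2.08e-05), 0.34 (HCC827, 0.0347) and 0.34 (PC9, 0.0470). The PC9 call of IDH2 was lost without any H1975 library, PC9 control replicate 1 or 2 or PC9 ZNF263 replicate 1 (0.0620 to 0.358), and the HCC827 call without PC9 control replicate 1 or 2, HCC827 control replicate 2 or HCC827 ZNF263 replicate 1 (0.0535 to 0.294). Median-of-ratios scaling ended both calls (0.0508 in PC9 and 0.0752 in HCC827). TET2, a methylcytosine dioxygenase, rose in H1975 to 1.56 FPKM with ZNF263, against 0.752 FPKM in control cells (0.55, 0.000169). D2HGDH, which removes an inhibitor of the TET enzymes, fell by 0.36 in H1975 (0.00132) and stood at 0.25 in HCC827, where its call (0.0400) was lost without any of 10 libraries (all but the 2 PC9 control libraries) and under both scalings. Of 11 histone H3 lysine 9 demethylases, 5 rose and 3 fell in H1975 (3 rose without H1975 control replicate 1 or H1975 ZNF263 replicate 1), where 64.2% of all genes were called, led by KDM1A (LSD1) at 0.73 (1.25e-07), with PHF2 at 0.39 (0.000347) and JMJD1C at -0.33 (0.00988). The JMJD1C call was lost when H1975 control replicate 2 or H1975 ZNF263 replicate 1 was left out (0.0696 and 0.118). PHF2 alone was called in HCC827 (0.36, 0.00394), and 0 of 11 passed in PC9, or 1 higher without HCC827 control replicate 1 or 2.

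Other genes with both a SCAN and a KRAB domain, the domain pair that ZNF263 carries, were split. Of 15 measured, 5 rose and 4 fell in H1975, beside 64.2% of all genes, and 0 passed in HCC827 and PC9. The count that rose was 2 without H1975 control replicate 1, and 3 without H1975 control replicate 2 or H1975 ZNF263 replicate 1. In HCC827 it was 1 without control replicate 1 and 2 without control replicate 2. ZKSCAN8 rose to 7.002 FPKM with ZNF263, against 3.18 FPKM in H1975 control cells (0.94, limma adjusted p = 8.36e-07). ZKSCAN3, a repressor of autophagy genes, rose by 0.44 (6.82e-05), and ZNF496 fell by 0.47 (8.68e-05). Germline genes that promoter DNA methylation keeps silent in most tissues were mostly below the filter, with 6 of 20 measured in PC9 and HCC827 and 5 of 20 in H1975. None rose in H1975, where MAGEB2 had 0.133 FPKM with ZNF263 and 0.361 FPKM in control cells (-0.26, 0.0238; not called without H1975 control replicate 2 or H1975 ZNF263 replicate 1, and below the filter without HCC827 ZNF263 replicate 1 or 2). In HCC827, MAGEB2 had 1.37 FPKM with ZNF263 and 0.822 FPKM in control cells (0.38, 0.0113). That call was lost with a pseudocount of 0.1 (0.67, 0.132), with voom on the recovered reads (0.72, 0.210) and under quantile normalization (0.27, 0.0513), and without HCC827 ZNF263 replicate 1 or 2 the gene was below the filter. In the same line MAGEA4 had 1.336 and 0.9996 FPKM (0.22, 0.0485), a call lost without any of 10 libraries, the exceptions being HCC827 control replicate 2 and HCC827 ZNF263 replicate 2, and under both scalings.

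**Figure D4:**
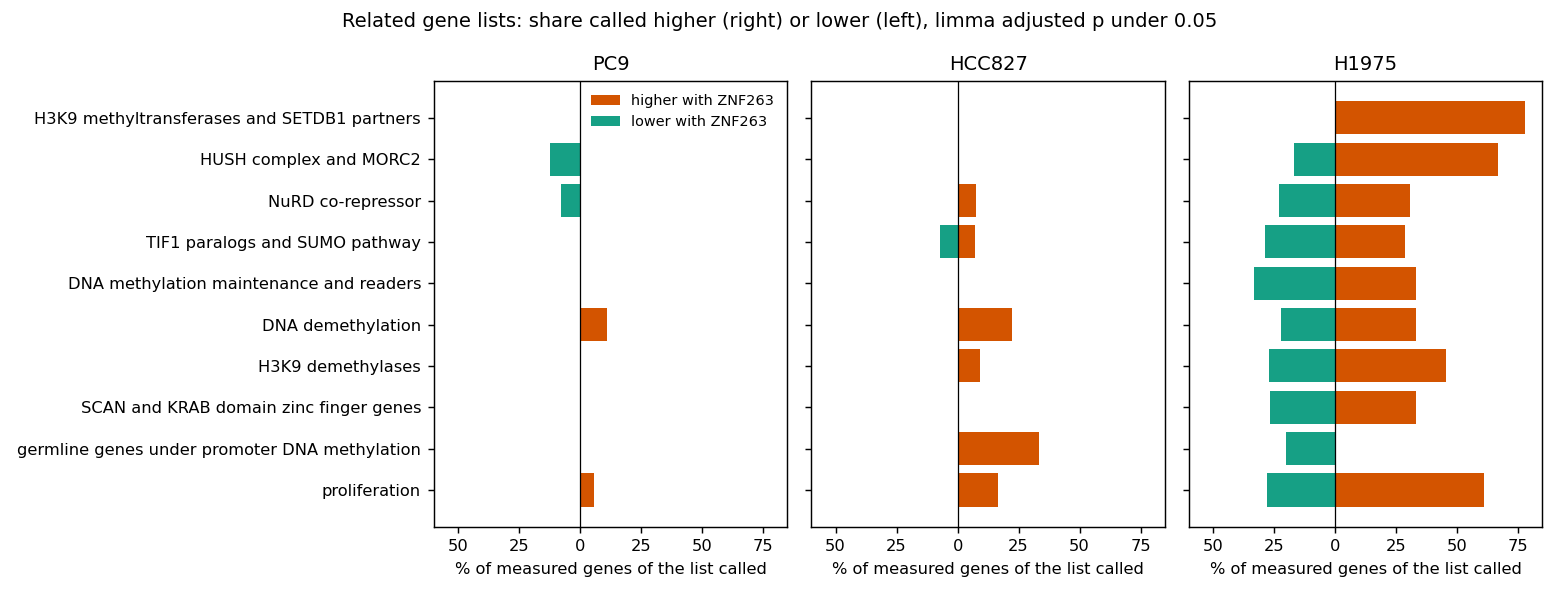
Share of the measured genes of each related list called higher (right of 0) or lower (left of 0) with ZNF263 in each line, in percent, at a limma adjusted p of 0.05; each bar is a count over the list, with no error. In H1975 the histone H3 lysine 9 methyltransferases and SETDB1 partners have 7 of 9 genes higher and 0 lower, and most other lists have calls in both directions. Over all tested genes in H1975, 32.1% were called higher and 32.1% lower. Chromosomal neighbours of the listed genes were not examined.

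Genes that the cell uses while it copies DNA are the usual companions of DNMT1 and UHRF1, and their values are given beside these. Of 18 proliferation genes, 11 rose and 5 fell in H1975, beside 32.1% of all genes in each direction, and the number that rose was 6 without H1975 control replicate 2 and 7 without H1975 ZNF263 replicate 2. The list summed to 989.4 to 1014 FPKM with ZNF263 and 956.2 to 975.5 FPKM in H1975 control libraries. The helicase subunits MCM5 and MCM6 rose there by 0.57 and 0.54 (limma adjusted p = 4.37e-06 and 4.19e-07), and RRM2, a ribonucleotide reductase subunit, fell by 0.74 (3.58e-08). In HCC827, 3 rose (TOP2A by 0.37, MCM6 by 0.32 and CCNE2 by 0.38; 0.00408, 0.000619 and 0.0371) and 0 fell (1 without HCC827 control replicate 2), with sums of 877.1 to 922.4 FPKM with ZNF263 and 846.1 to 859.9 FPKM in control libraries, while UHRF1 was lower. The CCNE2 call was lost without any PC9 library, HCC827 control replicate 1 or HCC827 ZNF263 replicate 1 or 2 (0.0543 to 0.240) and under both scalings. In PC9, 1 rose, MCM6, by 0.24 (0.00487; 0.0608 without PC9 control replicate 2), with sums of 1190 to 1191 FPKM with ZNF263 and 1192 to 1197 FPKM in control libraries. The part of proliferation in the values of DNMT1 and UHRF1 was not tested.

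The genes whose values were most like those of ZNF263 were taken by Pearson's correlation over the 12 libraries, each on log2(FPKM + 1) less its line's mean, among 12217 genes. Since ZNF263 was set by the experiment, this ranks genes by how closely they followed the groups and by how much less they changed in HCC827, and it is a description. The highest were HSPA2 (r = 0.992), a heat shock protein gene, GNAI2 (0.988), an inhibitory G protein subunit gene, ADCY9 (0.978), an adenylate cyclase gene, RTN3 (0.977), a reticulon gene, and EEF1A2 (0.977), a translation elongation factor gene. HSPA2 changed by 0.75 in PC9, 0.28 in HCC827 and 0.90 in H1975, and GNAI2 by 0.74, 0.11 and 0.62. ADCY9 lies on the same chromosome as ZNF263 (16, 3953387 to 4116185) and changed by 0.53, 0.27 and 0.50. The most opposed were LHFPL2 (r = -0.992), POGK (-0.989), IL31RA (-0.987), TOMM5 (-0.985) and NPAS2 (-0.983). POGK, itself a KRAB domain gene, changed by -0.63 in PC9, -0.26 in HCC827 and -0.72 in H1975. None of the silencing genes came near these: CBX5 was closest to ZNF263 (r = 0.836, rank 415), then SETDB1 (0.705) and DNMT1 (0.685), and TRIM28 was most opposed (-0.674).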

How the data were processed

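Per the labels' protocols, TRIZOL was used for the RNA and a SMARTER kit for mRNA-seq libraries. The authors deposited 1 table of FPKM per gene for 12 libraries. The build is GRCh38.p13, per the submitters' processing notes; aligner, counter, annotation and strand use: not given in the sources used here. Of 20030 rows, 27 with names turned into dates were left out; 3383 genes had no value in HCC827 and 3339 none in H1975. Groups were taken from the titles, whose suffix OR is not explained there.

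The test was limma (version 3.58.1, R 4.3.3) on log2(FPKM + 1) for genes that reached 1 FPKM in 2 libraries or more, with 6 group means, a trended prior variance and Benjamini-Hochberg adjustment per contrast. The 4 libraries of a line decide its change; the spread is shared by all 12, so leaving out a library of another line can move a p. On this scale the changes of low genes are understated. The fit was tested on simulated data. Low FPKM values were whole multiples of 1 read for 99.99% of genes or more, which gave reads up to a factor common to a gene's libraries within a line; 1 FPKM of the median gene stood for 70.18 to 80.01 reads in PC9, 64.52 to 67.34 in HCC827 and 117.5 to 127.3 in H1975, and the 10 genes had 368 to 43487 reads per library. Positions and exons were from GENCODE on GRCh38 (19266 genes matched by symbol), and promoter windows from RefSeq on GRCh38.p14. A gene's neighbours were up to 10 tested genes on each side.

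The 10 genes and the other lists were chosen with earlier results of these data known. All 10 genes are named, with up to 3 called genes of largest change per list and line, the 5 genes most like ZNF263 and the 5 most opposed, and the tested genes next to each of the 10 genes. Alternatives were another pseudocount, filter or scaling, a replicate block, fits on 1 line, each library left out, and voom on the recovered reads, which was added after the data were seen.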

Additional observations from a re-analysis of the deposited data

Results flagged for a closer look

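For 8 of the 10 genes the change with ZNF263 differed between PC9, HCC827 and H1975 by limma's F test over the 3 within-line changes, which 60.3% of all tested genes also passed. The adjusted p was 6.76e-08 for ZNF263, whose rise was smallest in HCC827. It was 2.00e-06 for DNMT1, 3.87e-05 for CBX5 and 0.00217 for SETDB1, which rose most in H1975. It was 1.00e-05 for TRIM28 and 0.00195 for DNMT3B, which were lowest relative to control in H1975. It was 0.00923 for UHRF1, which fell most in HCC827, and 0.0364 for DNMT3A, which was called in HCC827 alone. Groups of 2 libraries were too small to test a single library as an outlier.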

How the results depend on the processing

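The rise of ZNF263 kept its direction and call in every line under all alternatives that gave a test, and stood at 1.80 in H1975 less its neighbours' median. No direction of a called change was reversed. The number of the 10 genes called, ZNF263 included, was 1 in PC9, 5 in HCC827 and 8 in H1975. In PC9 it was 2 without the filter on low values and 2 with voom on the recovered reads. In HCC827 it was 3 without the filter, 3 with median-of-ratios scaling and 1 in a fit on that line's 4 libraries alone. Fits on 1 line called 407 genes in PC9 and 634 in HCC827, against 1430 and 2386 in the fit of all 12 libraries. Leaving out 1 library at a time gave 1 to 2 of the 10 genes in PC9, 2 to 5 in HCC827, 6 to 8 in H1975, 6 to 8 in the mean over lines and 7 to 9 for a difference between lines, the lone library of the reduced group being assumed to vary like the other groups. Over all genes it gave 584 to 1898 in PC9, 1035 to 3107 in HCC827 and 6801 to 8227 in H1975. With the replicate number as a block, 1, 5 and 7 of the 10 genes were called in PC9, HCC827 and H1975, UHRF1 being lost in H1975 (adjusted p = 0.0681). Libraries of the same number did not deviate together over all genes (correlations 0.033 in PC9, 0.10 in HCC827 and -0.058 in H1975). With 2 libraries per group this cannot exclude a pairing that is weak or touches few genes. TRIM28, SETDB1, CBX5, DNMT1 and DNMT3B in H1975 were called under every alternative that gave a test. The UHRF1 call in HCC827 was lost in the fit on that line alone (0.0798). The causes of the lost calls were not tested. Of the 10 genes, DNMT3A and DNMT3B had the fewest reads, 368 and 377 in their lowest libraries. For DNMT3A that library was H1975 ZNF263 replicate 2, where it stood at 0.891 FPKM. The part of depth in their results was not tested.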
